A study of Homo sapiens with 6 samples.

Results

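The transcripts described here are 41 genes of macroautophagy, the route by which a double membrane closes around cytoplasm, protein aggregates or organelles and delivers them to the lysosome, together with the TFEB family of transcription factors. The rule that picks them uses gene symbols and no measured value, though the list was chosen with earlier results of these data known. They were looked up among 18780 genes. Of the 41, 40 were listed under their own symbol, and ATG101 was listed under C12orf44, its older symbol in the RefSeq gene table. RNA was sequenced in 6 libraries of PC-3, an established human prostate cancer line from a bone metastasis. The cells were given trans-Gnetin H (TGH), a resveratrol trimer, at 2.5 µM for 24 h (n = 3), against cells given dimethyl sulfoxide (DMSO), a common solvent (n = 3). Both groups grew in the same serum-containing medium per the labels, which name no other agent or genetic change. The title of the series names the aim as depriving the cells of glucose by a drug.

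Levels are given in TPM, a unit of transcript abundance scaled by transcript length and by library total, so that levels can be set against each other between genes. Differences are TGH minus DMSO on the deposited log2(TPM + 1) scale, and a gene is called higher or lower where its adjusted p is under 0.05 (limma with Benjamini-Hochberg adjustment, over 12018 genes whose mean reached 1 TPM). TPM is a relative measure, so a change in total RNA per cell cannot be told apart from a change in the share of a transcript. Nothing in the labels says that the 3 replicates came from separate cultures. The p-values set each difference against the spread between these libraries, which may be technical only.

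The libraries were epithelial by their markers. The summed level of 5 epithelial markers was 1487 to 1503 TPM in TGH libraries, against 1815 to 1900 TPM in DMSO libraries. KRT8, KRT18 and EPCAM were lower in every TGH library than in any DMSO library, and KRT19 overlapped between the groups. CDH1 went the other way, at 51.3 to 52.9 TPM with TGH and 48.4 to 50.3 TPM in DMSO. The part of this lower epithelial sum in the results was not tested. The prostate luminal marker TMPRSS2 was low, at 5.08 to 5.50 TPM with TGH and at 4.06 to 4.80 TPM in DMSO. Markers of immune cells (5 of 5 listed, summed level at most 0.83 TPM), endothelial cells (3 of 3, at most 0.31 TPM) and neuroendocrine cells (3 of 3, at most 0.39 TPM) were near 0 in both groups. Of 5 fibroblast markers, COL1A1 alone exceeded 1 TPM, and their summed level was 2.6 to 3.0 TPM with TGH and 3.4 to 3.7 TPM in DMSO. Genes with a value of 0 numbered 1469, 1498 and 1342 in TGH replicates 1 to 3, against 3074, 3185 and 1530 in DMSO replicates 1 to 3, so that DMSO replicates 1 and 2 stand apart.

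Autophagy starts when the ULK1 kinase complex, held inactive by mTORC1 in fed cells, is released and activates a lipid kinase complex that marks a membrane of the endoplasmic reticulum (ER) with the lipid PI3P. WIPI proteins read that lipid, ATG2 and ATG9 feed lipid into the growing membrane, and a pair of ubiquitin-like conjugation systems attaches ATG8 proteins such as LC3B to it. Cargo receptors tie ubiquitinated cargo to the ATG8 proteins, and TFEB, TFE3 and MITF, which mTORC1 keeps in the cytoplasm, can raise transcription of autophagy and lysosome genes from the nucleus.

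With TGH, 1 transcript of the machinery, WIPI1, was about 3 times as abundant, and the others differed by much less. Of the 41 members 15 were called higher, 5 lower and 21 neither, or 48.8% called, beside 55.2% of all 12018 genes tested. By direction 36.6% of the members were called higher and 12.2% lower, beside 28.9% and 26.3% of all genes tested. The difference between these shares was not tested. Counts by role, given below for small groups of genes, are to be read beside the same 28.9% and 26.3%. Under quantile normalization 12 of the 41 members were higher and 7 lower, beside 2964 (24.7%) and 3643 (30.3%) of all 12018 genes. Against DMSO replicate 3 as the only control 14 members were higher and 4 lower, beside 25.6% and 22.9% of all genes. The median difference was 0.08 over the 41 members and 0.02 over all genes tested. A call together with a difference of at least 0.5 was found for 4 of the 41 members, WIPI1, WDR45, OPTN and GABARAPL1. Over all genes tested it was found for 1274 of 12018 (10.6%). TGH and DMSO libraries did not overlap in 25 members, 18 of them higher with TGH and 7 lower, while groups did not overlap in 64.4% of all genes tested (33.6% higher and 30.8% lower). All 41 passed the filter on low values, MAP1LC3A only just, with a mean of 1.26 TPM with TGH and 0.88 TPM in DMSO.

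**Figure D1:**
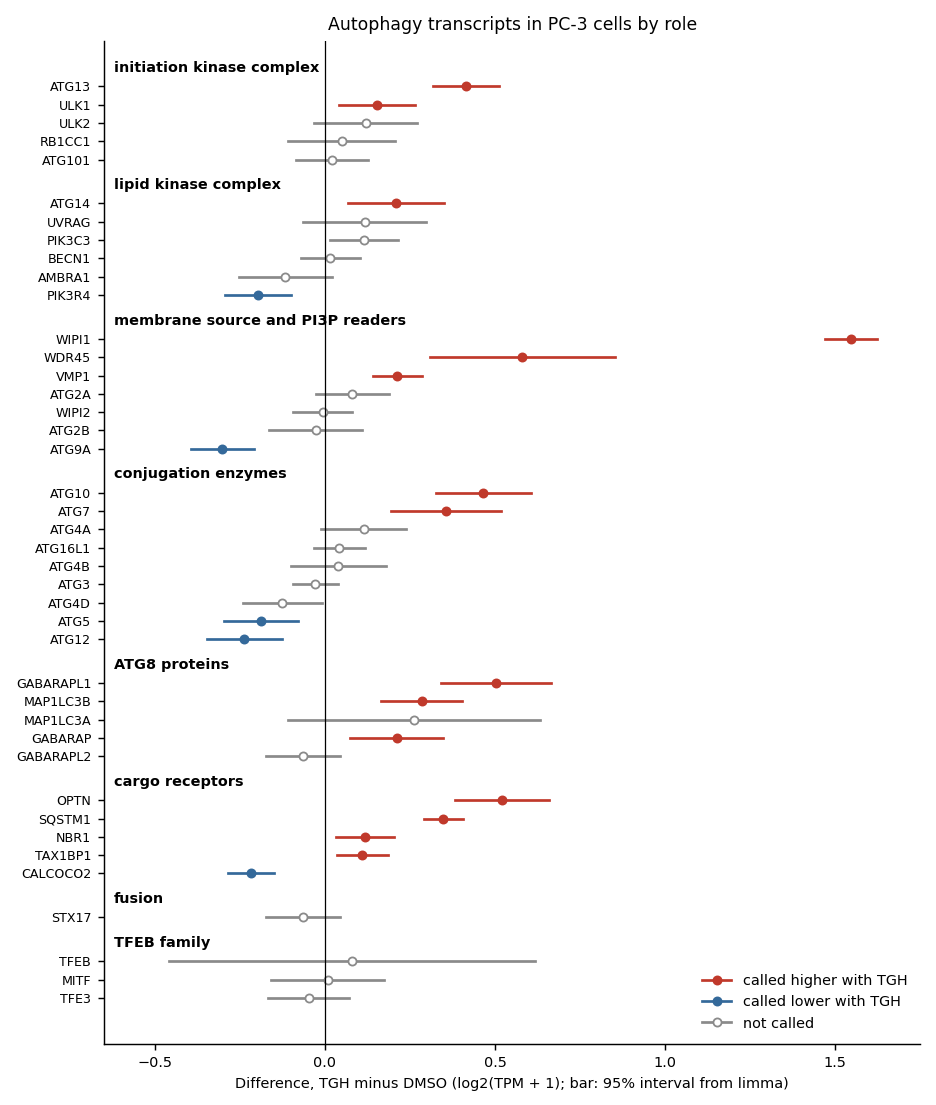
Difference of each of the 41 members, TGH minus DMSO in log2(TPM + 1), with its 95% interval from limma (n = 3 libraries per group), grouped by role. Filled points are called at an adjusted p under 0.05. WIPI1 at 1.55 lies far from the other members, which lie between -0.30 and 0.58.

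Promoter windows of RefSeq (GRCh38.p14, from 250 bases before to 50 after a gene's start) were found for 36 members, 49 windows in all, and were searched on both strands for the sites of transcription factors tied to autophagy or ER stress. CACGTG, the E-box inside the CLEAR element that TFEB, TFE3 and MITF bind, was in the windows of ATG3 and ATG14, and in 7.26% of all 35116 windows. TCACGTGA, a longer form of the CLEAR element that holds the same E-box, was in that of ATG3 and in 0.98% of all windows. TGATGNAA, a site of ATF4 with its partners such as CHOP, was in 1 window of WDR45 and in 3.62% of all windows. The ERSE, CCAAT and CCACG at a spacing of 9 bases, which ATF6 binds with NF-Y, was in 0 of the 49 windows and in 0.0769% of all windows. The windows that hold a site are shown 5′ to 3′ with the site in capitals, after that of WIPI1, the member with the largest difference, which holds none of these letters.
WIPI1 (chr17:68457447-68457746, minus strand): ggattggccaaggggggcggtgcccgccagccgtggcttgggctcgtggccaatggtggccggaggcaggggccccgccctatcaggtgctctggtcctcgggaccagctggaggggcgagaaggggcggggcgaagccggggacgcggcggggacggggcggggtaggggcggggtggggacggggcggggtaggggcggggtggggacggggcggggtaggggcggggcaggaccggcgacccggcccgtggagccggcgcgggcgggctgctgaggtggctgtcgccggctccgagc
ATG14 (chr14:55411781-55412080, minus strand): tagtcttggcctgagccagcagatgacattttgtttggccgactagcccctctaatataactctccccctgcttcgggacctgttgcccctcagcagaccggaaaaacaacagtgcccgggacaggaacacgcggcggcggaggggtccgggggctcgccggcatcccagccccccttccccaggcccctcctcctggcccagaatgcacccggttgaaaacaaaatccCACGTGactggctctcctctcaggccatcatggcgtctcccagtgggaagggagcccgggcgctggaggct
ATG3 (chr3:112561913-112562212, minus strand): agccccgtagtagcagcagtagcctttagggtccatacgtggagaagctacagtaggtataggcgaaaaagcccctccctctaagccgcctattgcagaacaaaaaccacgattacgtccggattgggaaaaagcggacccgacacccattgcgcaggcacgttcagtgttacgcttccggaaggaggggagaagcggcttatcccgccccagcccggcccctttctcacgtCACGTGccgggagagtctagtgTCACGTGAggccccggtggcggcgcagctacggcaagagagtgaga
WDR45 (chrX:49079838-49080137, minus strand): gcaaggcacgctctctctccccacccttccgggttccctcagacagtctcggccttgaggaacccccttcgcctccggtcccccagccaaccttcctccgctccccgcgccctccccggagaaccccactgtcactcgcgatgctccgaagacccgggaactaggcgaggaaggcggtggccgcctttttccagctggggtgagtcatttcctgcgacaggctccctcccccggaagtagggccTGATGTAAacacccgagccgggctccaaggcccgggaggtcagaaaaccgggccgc
In ATG3 an E-box lies 18 to 13 bases before the start, and the longer element is 5 to 12 bases after it. In ATG14 the E-box lies 21 to 16 bases before the start, and in WDR45 the ATF4 site spans it. The match is of letters alone, in an annotation of another build than the hg19 of the deposited table. Of these 4 genes WIPI1, ATG14 and WDR45 were called higher, and ATG3 was not called.

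In the initiation kinase complex, 2 of 5 transcripts were higher, 0 lower and 3 not called, with a median difference of 0.12. ATG13, the subunit that links the ULK kinases to FIP200, was at 19.1, 18.8 and 18.7 TPM in TGH replicates 1 to 3, against 13.9, 13.2 and 14.5 TPM in DMSO replicates 1 to 3. The groups lay well apart, with a difference of 0.42 (SE 0.040, adjusted p = 0.00023). ULK1, the main kinase, was at 9.73, 10.7 and 9.99 TPM with TGH, against 8.72, 8.96 and 9.33 TPM in DMSO, which is a difference of 0.15 (adjusted p = 0.029). These groups did not overlap, but the gap between them was narrow. The call was lost without TGH replicate 2 (0.12, adjusted p = 0.094), TGH replicate 3 (0.16, adjusted p = 0.070), DMSO replicate 1 (0.13, adjusted p = 0.066) or DMSO replicate 2 (0.15, adjusted p = 0.061), and also under median scaling (0.12, adjusted p = 0.068), under quantile normalization (0.12, adjusted p = 0.072) and against DMSO replicate 3 alone (0.11, adjusted p = 0.22).

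ULK2, the related kinase, averaged 3.53 ± 0.037 TPM with TGH and 3.18 ± 0.287 TPM in DMSO (SD, n = 3 each) and was not called, with a 95% interval of the difference from -0.03 to 0.27. ULK1 made up 74.1% ± 0.86 of the summed ULK1 and ULK2 level with TGH and 73.9% ± 1.94 in DMSO, a difference within the spread between replicates. RB1CC1, which encodes the scaffold FIP200, and ATG101, which stabilises ATG13, overlapped between the groups. Their differences were 0.05 (95% interval -0.11 to 0.21) and 0.02 (-0.09 to 0.13). ATG101, at 54.7 ± 1.30 TPM with TGH and 54.0 ± 3.04 TPM in DMSO, was the most abundant subunit transcript of this complex in both groups.

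Of the 6 transcripts of the lipid kinase complex 1 was higher, 1 lower and 4 not called, with a median difference of 0.07. PIK3R4, the regulatory subunit VPS15, fell to 5.74, 5.62 and 5.75 TPM in TGH libraries, against 6.61, 6.53 and 6.94 TPM in DMSO libraries. The groups did not overlap, and the difference was -0.20 (SE 0.041, adjusted p = 0.0062), or -0.13 with a pseudocount of 5. ATG14, which directs the complex to the ER and holds the E-box shown above, was at 9.43, 9.27 and 8.55 TPM with TGH and at 7.33, 8.33 and 7.53 TPM in DMSO. Every TGH library lay above the DMSO libraries. The difference of 0.21 (adjusted p = 0.023) was not called without TGH replicate 1 (0.18, adjusted p = 0.083), TGH replicate 2 (0.19, adjusted p = 0.075), DMSO replicate 1 (0.18, adjusted p = 0.055) or DMSO replicate 3 (0.19, adjusted p = 0.066), nor under quantile normalization (0.16, adjusted p = 0.057).

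PIK3C3, the catalytic subunit VPS34, had 11.2, 11.3 and 10.4 TPM in TGH libraries, against 10.0, 9.91 and 10.2 TPM in DMSO libraries. These do not overlap, but the difference of 0.11 narrowly missed a call (adjusted p = 0.056) and passed it without TGH replicate 3 (0.15, adjusted p = 0.032) or with a filter at 5 TPM (adjusted p = 0.048). BECN1, the scaffold Beclin 1, averaged 23.0 ± 0.409 TPM with TGH and 22.7 ± 0.844 TPM in DMSO, a difference of 0.02 (95% interval -0.07 to 0.10). UVRAG, which replaces ATG14 in a complex of the endosome, was not called (0.12, 95% interval -0.06 to 0.30), except without DMSO replicate 1 (0.20, adjusted p = 0.018). AMBRA1, a Beclin 1 partner, had -0.12 (95% interval -0.25 to 0.02) and was called lower under quantile normalization alone (-0.19, adjusted p = 0.026).

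Among the transcripts of the proteins that read PI3P and supply the membrane lie the largest rise and the largest fall of the members. Of these 7 transcripts 3 were higher, 1 lower and 3 not called, with a median difference of 0.08. WIPI1, a PI3P-binding propeller protein whose transcript is used as a marker of induced autophagy, was at 26.3, 25.3 and 25.8 TPM in TGH replicates 1 to 3, against 8.03, 8.22 and 8.28 TPM in DMSO replicates 1 to 3. The lowest TGH library was above the highest DMSO library by far more than either group's spread. The ratio of mean TPM was 3.16, and the difference on the log2 scale was 1.55 (SE 0.032, adjusted p = 6.5e-07), which ranked 77 by size among the 12018 genes tested. It was called under all 17 alternatives, with values from 1.23, at a pseudocount of 5, to 1.65, at a pseudocount of 0.1. WIPI1 is also the only member whose difference reached 1 on the log2 scale.

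WDR45, also known as WIPI4, which works with the ATG2 lipid transfer proteins, was at 8.45, 10.3 and 9.15 TPM with TGH and at 6.05, 4.89 and 6.80 TPM in DMSO. The groups did not overlap although both were spread widely, and the difference was 0.58 (SE 0.114, adjusted p = 0.0050). Against DMSO replicate 3 alone it was 0.40 (adjusted p = 0.031). WIPI2, the family member that recruits the conjugation machinery, overlapped between the groups, with 22.4 ± 0.300 TPM in TGH and 22.6 ± 0.915 TPM in DMSO libraries (difference -0.01, 95% interval -0.09 to 0.08). With WDR45B, a relative outside the list that fell by 0.16 (adjusted p = 0.0013), the summed level of the family was 124 ± 0.320 TPM with TGH and 111 ± 0.789 TPM in DMSO. WIPI1 made up 20.8% ± 0.34 of that sum with TGH and 7.36% ± 0.15 in DMSO, while WDR45B made up 53.6% ± 0.70 with TGH and 67.0% ± 1.14 in DMSO.

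ATG9A, the membrane protein of the vesicles that seed the autophagosome, fell to 17.5, 19.0 and 18.7 TPM in TGH libraries, against 23.0, 22.6 and 23.0 TPM in DMSO libraries. No TGH library reached the lowest DMSO library, and the difference was -0.30 (SE 0.039, adjusted p = 0.00077). VMP1, an ER lipid scramblase needed to separate the new membrane from the ER, rose to 75.0, 70.2 and 72.3 TPM, against 61.9, 61.9 and 63.3 TPM in DMSO (0.21, SE 0.030, adjusted p = 0.0012). The lipid transfer proteins were not called, with 0.08 (95% interval -0.03 to 0.19) for ATG2A and -0.03 (-0.16 to 0.11) for ATG2B.

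**Figure D2:**
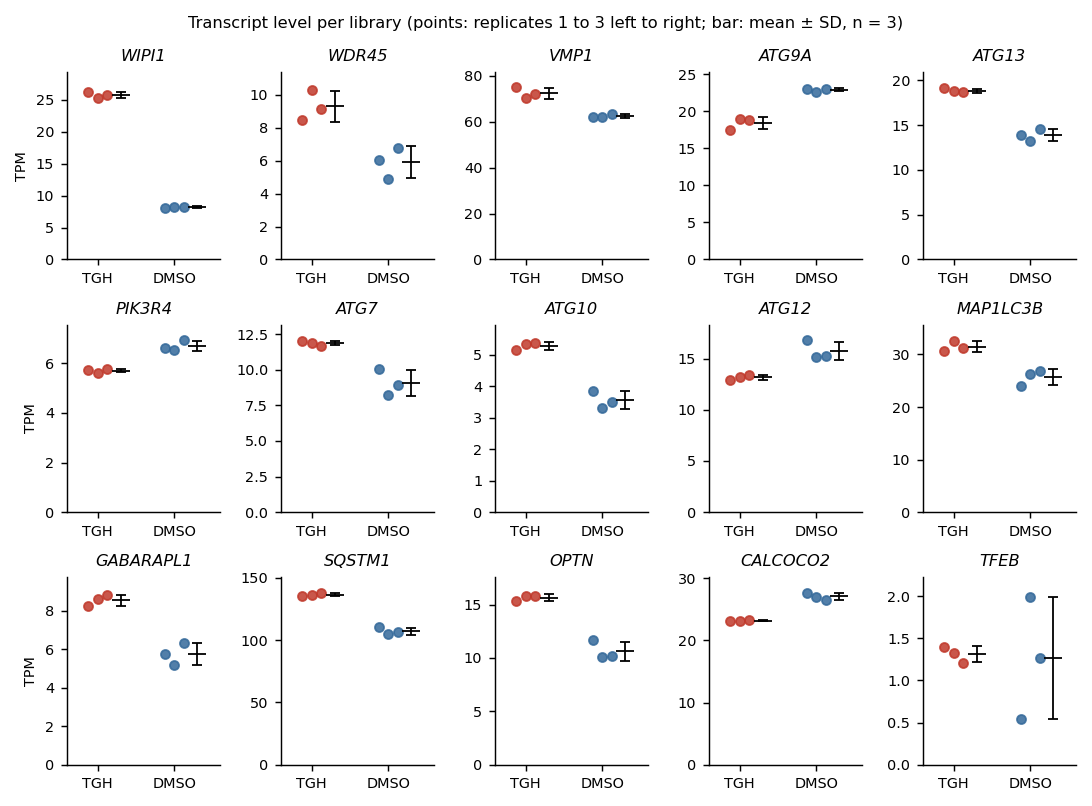
TPM of 15 members in each library, with TGH left of DMSO in each panel, points for replicates 1 to 3 and a bar for mean ± SD (n = 3). The 14 members called under every setting that tested them are shown, and TFEB, whose DMSO libraries lie between 0.541 and 1.99 TPM. In the 14 others the TGH and DMSO points do not overlap, which the way they were picked makes likely. Groups did not overlap in 64.4% of all genes tested.

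In the conjugation machinery ATG7 and ATG10 rose, ATG12 and ATG5 fell, and 5 of the 9 transcripts were not called, with a median difference of 0.04. ATG7 is the activating (E1-like) enzyme of both systems, and ATG10 is the E2-like enzyme that joins ATG12 to ATG5. ATG10 was at 5.14, 5.33 and 5.38 TPM with TGH, against 3.86, 3.31 and 3.50 TPM in DMSO (0.47, SE 0.058, adjusted p = 0.00069). The groups stood apart, and the difference was 0.27 with a pseudocount of 5. ATG7 was at 12, 11.9 and 11.7 TPM with TGH and at 10.1, 8.23 and 8.91 TPM in DMSO (0.36, SE 0.068, adjusted p = 0.0044), with no overlap and a wider spread in DMSO.

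The transcripts of the proteins that ATG10 joins went the other way. ATG12, the ubiquitin-like protein, fell to 12.9, 13.2 and 13.4 TPM with TGH, against 16.8, 15.2 and 15.2 TPM in DMSO (-0.24, SE 0.046, adjusted p = 0.0049). ATG5, to which it is joined, fell to 14.3, 14.6 and 14.4 TPM with TGH, against 17.2, 17.1 and 15.5 TPM in DMSO (-0.19, SE 0.046, adjusted p = 0.012). No TGH library reached a DMSO library in either gene. For ATG5 DMSO replicate 3 lay below the other controls, and against it alone the difference was -0.10 and not called (adjusted p = 0.11).

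ATG16L1, which places the joined pair on the membrane, averaged 23.3 ± 0.420 TPM with TGH and 22.6 ± 0.533 TPM in DMSO (0.04, 95% interval -0.03 to 0.12). ATG3, the E2-like enzyme that attaches ATG8 proteins to lipid, was the most abundant of the conjugation enzymes in both groups, with 74.8 ± 1.45 TPM in TGH and 76.3 ± 1.92 TPM in DMSO libraries. Its difference was -0.03 (95% interval -0.09 to 0.04), and its window is the one that holds the longer CLEAR element. The ATG4 proteases, which trim ATG8 proteins and release them from the membrane, overlapped between the groups. ATG4A had 0.11 (95% interval -0.01 to 0.24), ATG4B had 0.04 (-0.10 to 0.18) and ATG4D had -0.13 (-0.24 to -0.01, adjusted p = 0.066). ATG4A was called higher without DMSO replicate 2 (0.16, adjusted p = 0.031). ATG4D was called lower without TGH replicate 2 (-0.16, adjusted p = 0.048), without DMSO replicate 3 (-0.16, adjusted p = 0.034), under median scaling (-0.16, adjusted p = 0.035) and after rescaling without small RNAs (-0.14, adjusted p = 0.045).

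The 5 ATG8 transcripts encode the proteins attached to the autophagosome membrane. Of them 3 were higher with TGH, 0 lower and 2 not called, with a median difference of 0.26. That median is the value of MAP1LC3A, which was not called. It averaged 0.88 TPM in DMSO and passed the filter only through its TGH libraries. GABARAPL1, the family member with the largest difference, was at 8.23, 8.62 and 8.79 TPM in TGH libraries, against 5.77, 5.17 and 6.31 TPM in DMSO libraries. The groups did not overlap, and the difference was 0.50 (SE 0.068, adjusted p = 0.00097), or 0.33 with a pseudocount of 5. MAP1LC3B, which encodes LC3B, the usual protein marker of autophagosomes, was at 30.6, 32.6 and 31.2 TPM with TGH and at 23.9, 26.2 and 26.9 TPM in DMSO (0.28, SE 0.050, adjusted p = 0.0031).

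GABARAP, the most abundant ATG8 transcript, was at 123, 123 and 127 TPM with TGH and at 117, 99.2 and 107 TPM in DMSO. The groups stood apart by less than the spread of the DMSO libraries, and the difference was 0.21 (SE 0.058, adjusted p = 0.019). It was not called without TGH replicate 1 (0.22, adjusted p = 0.052), TGH replicate 2 (0.22, adjusted p = 0.051), TGH replicate 3 (0.20, adjusted p = 0.066) or DMSO replicate 3 (0.21, adjusted p = 0.053). GABARAPL2, second in abundance, overlapped between the groups, with 55.6 ± 0.583 TPM in TGH and 58.2 ± 3.71 TPM in DMSO libraries (-0.06, 95% interval -0.17 to 0.05). MAP1LC3A was close to the filter, with 1.70, 1.04 and 1.05 TPM with TGH and 0.923, 0.596 and 1.13 TPM in DMSO, and its interval of -0.11 to 0.63 is too wide to set a direction.

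The summed level of the 5 ATG8 transcripts was 220, 221 and 223 TPM with TGH, against 203, 193 and 199 TPM in DMSO. GABARAP made up 56.3% ± 0.66 of the sum with TGH and 54.3% ± 3.26 in DMSO, and GABARAPL1 only 3.86% ± 0.10 with TGH and 2.90% ± 0.26 in DMSO, so the member with the largest difference adds little to the total. Reads of near-identical copies could be split between genes or dropped, and how the authors assigned them is not given in the sources used here, so the levels of MAP1LC3B and GABARAPL1 are uncertain to that extent. MAP1LC3B2 was at most 0.30 TPM, MAP1LC3C at most 0.56 TPM and GABARAPL3 at most 0.11 TPM in any library.

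**Figure D3:**
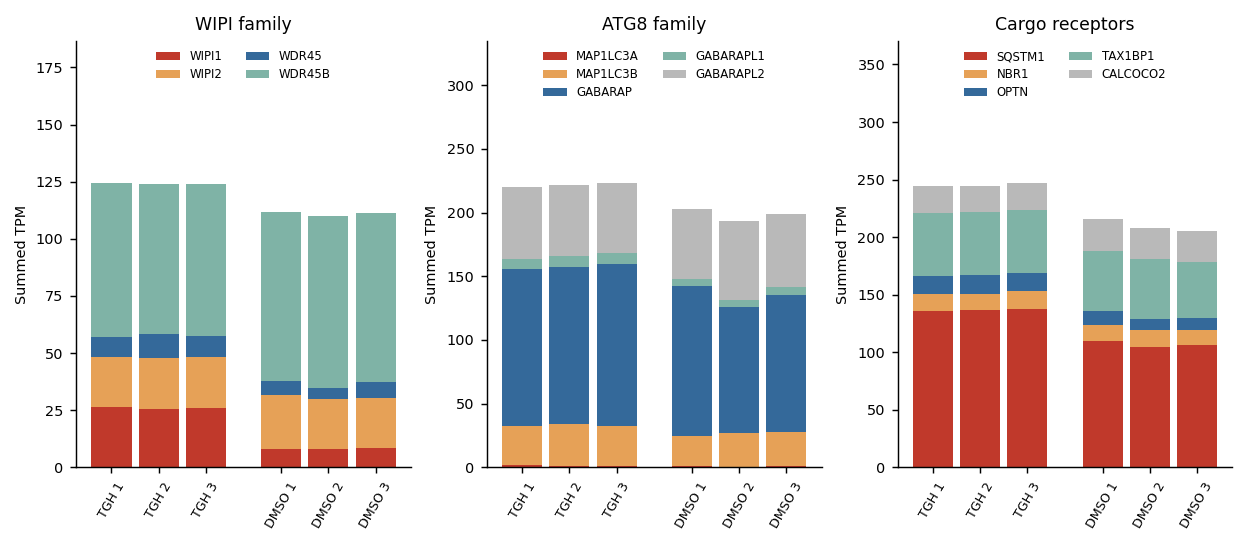
Summed TPM of the WIPI family, the ATG8 family and the 5 cargo receptors in each library, stacked by gene, with the 3 TGH libraries left of the 3 DMSO libraries. WIPI1 takes 20.8% of its family with TGH and 7.36% in DMSO, while GABARAP and SQSTM1 are the largest share of their stacks in every library.

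All 5 cargo receptors were called, 4 higher and 1 lower, with a median difference of 0.12, where 55.2% of all genes tested were called. The 4 called higher became 2, SQSTM1 and OPTN, under median scaling and without TGH replicate 1 or TGH replicate 3. SQSTM1, the receptor p62, which gathers ubiquitinated protein and is itself degraded by autophagy, was at 136, 136 and 138 TPM in TGH replicates 1 to 3, against 110, 105 and 106 TPM in DMSO replicates 1 to 3. The spread was small beside the gap, and the difference was 0.35 (SE 0.024, adjusted p = 5.7e-05). OPTN, optineurin, a receptor for bacteria, aggregates and damaged mitochondria, was at 15.3, 15.8 and 15.8 TPM with TGH and at 11.6, 10.1 and 10.2 TPM in DMSO (0.52, SE 0.058, adjusted p = 0.00042). These groups also stood apart.

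CALCOCO2, which encodes NDP52, a receptor for bacteria and damaged mitochondria, fell to 23.1, 23.1 and 23.2 TPM with TGH, against 27.7, 27.0 and 26.4 TPM in DMSO (-0.22, SE 0.029, adjusted p = 0.00090). Every TGH library lay below every DMSO library. TAX1BP1, a paralogue of NDP52, averaged 55.0 ± 0.220 TPM with TGH and 50.9 ± 1.81 TPM in DMSO, and NBR1, a partner of p62, averaged 15.0 ± 0.315 TPM with TGH and 13.8 ± 0.393 TPM in DMSO. Their differences were small, 0.11 (adjusted p = 0.022) and 0.12 (adjusted p = 0.029). For TAX1BP1 the call was lost under median scaling (0.08, adjusted p = 0.082) and without TGH replicate 1 (0.11, adjusted p = 0.064), TGH replicate 2 (0.11, adjusted p = 0.059) or TGH replicate 3 (0.11, adjusted p = 0.070), and against DMSO replicate 3 alone the difference was 0.17. For NBR1 it was lost under median scaling (0.08, adjusted p = 0.087), quantile normalization (0.09, adjusted p = 0.073) and the replicate block (0.12, adjusted p = 0.070), and without TGH replicate 1 (0.11, adjusted p = 0.084), TGH replicate 3 (0.10, adjusted p = 0.11) or DMSO replicate 3 (0.10, adjusted p = 0.080). SQSTM1 made up 55.6% ± 0.11 of the summed receptor level with TGH and 51.1% ± 0.67 in DMSO, and CALCOCO2 9.43% ± 0.03 with TGH and 12.9% ± 0.08 in DMSO.

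STX17, the syntaxin of the finished autophagosome that drives fusion with the lysosome, was at 3.62, 3.70 and 3.51 TPM with TGH, against 3.81, 3.86 and 3.79 TPM in DMSO. The groups did not overlap, but the difference of -0.06 was not called (95% interval -0.17 to 0.04), except under quantile normalization (-0.17, adjusted p = 0.020).

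None of the 3 transcripts of the TFEB family was called under any alternative that tested them. TFE3, the most abundant of them, was at 15.6, 17.1 and 16.9 TPM with TGH, against 16.5, 16.9 and 18.0 TPM in DMSO (-0.05, 95% interval -0.17 to 0.07). MITF was at 3.36, 3.28 and 3.62 TPM with TGH and at 3.42, 3.07 and 3.72 TPM in DMSO (0.01, 95% interval -0.16 to 0.17). TFEB itself was low, at 1.40, 1.32 and 1.21 TPM with TGH and at 0.541, 1.99 and 1.26 TPM in DMSO. The DMSO libraries lie on both sides of the TGH libraries, and the interval of -0.46 to 0.62 is too wide to set a direction. TFE3 made up 77.7% ± 1.13 of the summed family level with TGH and 78.6% ± 1.85 in DMSO. These factors are controlled mainly by their place in the cell, which transcript levels do not measure.

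Genes related to the members were counted in lists of the pathway, to be read beside the 28.9% of all genes tested that were called higher, the 26.3% called lower and their median difference of 0.02. Of 7 autophagy genes known to be raised by TFEB, 6 were tested, and 4 were higher (WIPI1, VPS11, SQSTM1 and MAP1LC3B), 0 lower and 2 not called, with a median of 0.32. UVRAG at 0.12 and VPS18, a tethering subunit, at -0.09 were those not called. Of these 6 genes 4 are members already described, and of the other 2, VPS11 and VPS18, 1 was higher, with a median of 0.21. Of 12 autophagy genes tied to the stress factors ATF4 or CHOP in mouse fibroblasts, all of them members, 6 were higher, 2 lower and 4 not called, with a median of 0.08. ATF4 averaged 252 ± 0.954 TPM with TGH and 166 ± 6.53 TPM in DMSO (0.60, adjusted p = 1.6e-05), and DDIT3, which encodes CHOP, averaged 75.9 ± 1.11 TPM with TGH and 18.1 ± 1.10 TPM in DMSO (2.01, adjusted p = 8e-07). Both lists are short and share MAP1LC3B and SQSTM1, and the difference between them was not tested.

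Of 19 lysosomal genes known as TFEB targets and tested, 13 were higher, 1 lower and 5 not called, with a median of 0.22. GAA, the lysosomal alpha-glucosidase, averaged 41.2 ± 1.10 TPM with TGH and 25.7 ± 0.880 TPM in DMSO (0.66), and CD63, a tetraspanin of late endosomes and lysosomes, averaged 749 ± 8.11 TPM with TGH and 586 ± 7.08 TPM in DMSO (0.35). PSAP, the precursor of saposins, rose by 0.33. HEXA was also on this list but was listed at 0 in 5 of the 6 libraries and did not pass the filter.

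Of 14 genes that control TFEB at the lysosome and were tested, 7 were higher, 4 lower and 3 not called, with a median of 0.15. FNIP1 and FLCN encode partners that act on the Rag GTPases, and rose by 0.66 and 0.57. FLCN was at 8.60, 8.64 and 8.95 TPM with TGH and at 6.40, 5.25 and 5.09 TPM in DMSO. MCOLN1, a calcium channel of the lysosome, rose by 0.54, while YWHAB, a 14-3-3 protein that holds partners in the cytoplasm, fell by 0.46.

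In the list of AMPK and mTORC1, the kinases that act on the ULK1 complex, and of the TSC complex, 7 of 14 were higher, 2 lower and 5 not called, with a median of 0.12. TBC1D7, a subunit of the TSC complex that restrains mTORC1, rose to 20.6, 20.8 and 21.2 TPM with TGH, against 13.0, 11.1 and 13.0 TPM in DMSO (0.71, adjusted p = 0.00013). TSC1, of the same complex, rose by 0.39 and PRKAB2, an AMPK subunit, by 0.36, while AKT1S1, an mTORC1 subunit that inhibits it, fell by 0.39.

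Among other genes of autophagosome formation and fusion, 10 of 20 tested were higher, 4 lower and 6 not called, with a median of 0.15. TMEM41B, an ER scramblase that works with VMP1, averaged 29.8 ± 0.855 TPM with TGH and 13.5 ± 1.34 TPM in DMSO, a difference of 1.09 (SE 0.069, adjusted p = 4.1e-05). Its groups lay far apart, and its difference was larger than that of VMP1, at 0.21. VPS11 and VPS41, subunits of the tether that brings autophagosomes to lysosomes, rose by 0.51 each, and KIAA0226, which encodes Rubicon, an inhibitor of the UVRAG complex, rose by 0.42.

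Receptors for selective autophagy were mixed. Of 8 ER-phagy receptors tested, which deliver pieces of the ER to the lysosome, 5 were higher, 0 lower and 3 not called, with a median of 0.20. CCPG1 averaged 9.03 ± 0.522 TPM with TGH and 4.07 ± 0.533 TPM in DMSO (0.99, SE 0.083, adjusted p = 0.00012), while CALCOCO1 rose by 0.55, TEX264 by 0.31 and ATL3 by 0.22. Of 11 receptors for mitochondria and other cargo, 5 were higher, 2 lower and 4 not called, with a median of 0.10. The mitochondrial receptors BNIP3 and BNIP3L fell by 0.48 and 0.25, while FKBP8, also on mitochondria, rose by 0.20 and TOLLIP, a ubiquitin-binding adaptor, by 0.22.

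**Figure D4:**
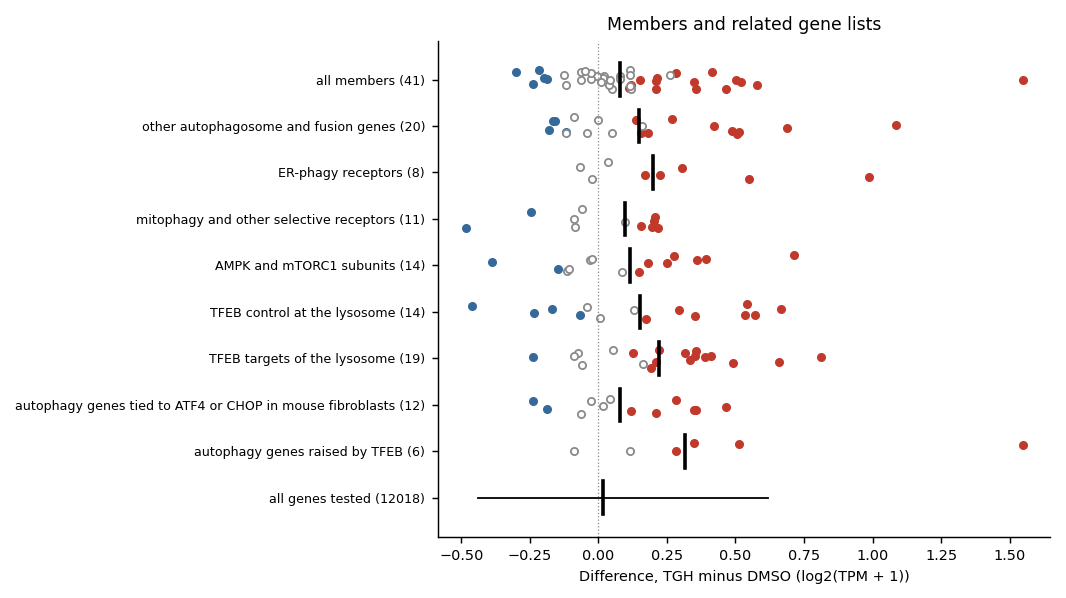
Difference of each tested gene, TGH minus DMSO in log2(TPM + 1), for the 41 members and 8 related lists, with the number of genes tested in parentheses. Red is called higher, blue called lower, open grey not called, thick bars are medians, and the thin line for all 12018 genes spans their 5th to 95th percentile (-0.44 to 0.62). The medians of the lists lie between 0.08 and 0.32, and that of all genes at 0.02.

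Some members share exons with a neighbour in the GENCODE 29 annotation, and whether the authors counted by strand is not given in the sources used here. WIPI1 overlaps ARSG, which was at most 0.68 TPM, and OPTN overlaps CCDC3, which was at most 0.02 TPM. ATG7 overlaps VGLL4, at 20.1 to 22.1 TPM with TGH and 16.6 to 17 TPM in DMSO, so that reads of these genes could be mixed, and the value of ATG7 is uncertain. The same holds for ATG12 with AP3S1, at 64.5 to 65.9 TPM with TGH and 59.6 to 63.6 TPM in DMSO, and for VMP1 with PTRH2, at 59.9 to 64.9 TPM with TGH and 60.6 to 62.6 TPM in DMSO. Of the members not called, ATG4D overlaps KRI1 (24.9 to 26.0 TPM with TGH, 30.4 to 32.8 TPM in DMSO), ATG4B overlaps THAP4 (37.6 to 41.3 TPM with TGH, 41.8 to 49.5 TPM in DMSO) and ATG2B overlaps GSKIP (9.93 to 11.0 TPM with TGH, 12 to 13.7 TPM in DMSO). WDR45 overlaps PRAF2 on the same strand, which was at most 0.52 TPM. ATG9A and GABARAP, both called, also overlap a coding gene on the same strand, AC068946.2 for ATG9A and AC120057.2 for GABARAP, which counting by strand would not separate. These 2 genes, and MRNIP, which overlaps SQSTM1, were not analysed here, so the values of ATG9A, GABARAP and SQSTM1 are uncertain to that extent. GABARAPL1, NBR1 and TAX1BP1, all called, each overlap a noncoding gene on the opposite strand, as do ATG101 and STX17, which were not called. Those noncoding genes were not analysed either, so the same uncertainty holds for these members.

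Of the 20 called members 14 were called in the same direction under each of the 17 alternatives that tested them, namely WIPI1, WDR45, OPTN, GABARAPL1, ATG10, ATG13, ATG7, SQSTM1, MAP1LC3B and VMP1, all higher, and PIK3R4, CALCOCO2, ATG12 and ATG9A, all lower. With a filter at 5 TPM 8 members, ATG10 among them, were not tested. The other 6 had differences of 0.21 or less in size. The matching share among all genes called was not computed, so 14 of 20 cannot be read as particular to these members.

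**Figure D5:**
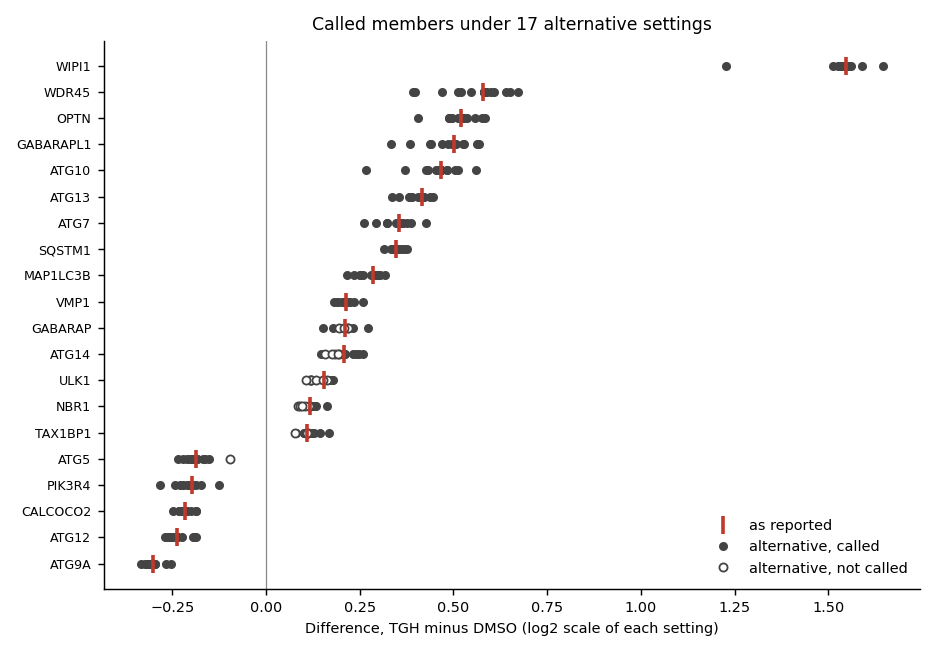
Differences of the 20 called members as reported (red bar) and under 17 alternatives (points, open where not called), TGH minus DMSO on the log2 scale of each alternative. No point crosses 0, and open points occur for GABARAP, ATG14, ULK1, NBR1, TAX1BP1 and ATG5 only.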

How the data were processed

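RNA of 6 PC-3 libraries, 3 given TGH and 3 given DMSO, was sequenced after ribosomal RNA depletion with a kit that keeps the strand, per the labels' protocols. The authors deposited a single table of log2(TPM + 1) values for 18780 gene symbols; an offset of 1 fits its smallest value, 0. The genome build was hg19, which the submitters' processing notes name; not given in the sources used here were the aligner, quantifier and annotation. Per library, the TPM in the table add up to 502380 to 518870, and TPM keeps no read total, so depth is unknown.

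A gene was tested if its TPM averaged 1 or more across both groups (12018 genes). The deposited log2 values went into limma 3.58.1 in R 4.3.3, with moderated variances that follow a trend, two-sided tests and Benjamini-Hochberg adjustment over every gene tested; this step was also tested on simulated data. Fold differences on this scale understate changes of low genes. All members are named, and in each related list up to 4 genes with the smallest p, except that some genes are not reported here; UVRAG and VPS18, the uncalled genes of a short list, and HEXA, WDR45B and TMPRSS2 were named after their values were seen. Members and lists were chosen with earlier results of these data known. Alternatives were pseudocounts of 0.1 and 5, the filter dropped or raised to 5 TPM, scaling each library to a common median, quantile normalization, TPM rescaled with small RNAs taken out, untrended or robust variances, the replicate number as a block, each library left out in turn, and DMSO replicate 3 as the sole control. With that sole control the spread came from the TGH libraries alone and was taken to hold for DMSO. TGH libraries differed less from their group mates, by a median of 0.040 to 0.047 on the log2 scale, against 0.056 to 0.077 in DMSO. Adjusted p-values against DMSO replicate 3 alone may therefore be too small. Figures were drawn with matplotlib 3.10.9.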

Additional observations from a re-analysis of the deposited data

How the results depend on the processing

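The count of members called higher, 15, lay between 12 and 15 under the alternatives that keep all libraries, and at 14 against DMSO replicate 3 alone; leaving out 1 library gave 11 to 15. The count called lower, 5, lay between 5 and 7 with all libraries, was 4 against DMSO replicate 3 alone, and was 5 to 6 with 1 library left out. Quantile normalization gave the most called lower, 7, with 12 higher, and over all genes 2964 higher and 3643 lower. Against DMSO replicate 3 alone 3071 genes were higher and 2757 lower. Over all genes the replicate block gave 3273 higher and 2958 lower, against 3479 and 3156 without it. The deviations of same-numbered libraries from their group means correlated at 0.01, 0.05 and 0.23 across genes for replicates 1, 2 and 3. Those of libraries with different numbers correlated at -0.16 to 0.10. Whether a replicate number marks a shared batch cannot be told from these values. With the block 14 members were higher and 5 lower. No called member changed direction under any of the 17 alternatives. Depth is unknown. TFEB and MAP1LC3A, both near 1 TPM, had the largest standard errors of the members, 0.23 and 0.15. For TFEB the SD on the log2 scale was 0.060 with TGH and 0.48 in DMSO.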
